A study of Thermothelomyces thermophilus with 14 samples.

Results

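Wild-type mycelium of the filamentous fungus Myceliophthora thermophila (strain ATCC 42464), which grows at high temperature and degrades plant cell walls, was compared after 4 h on xylobiose (X2) and after 4 h on cellobiose (G2). The comparison rests on 4 of the 14 libraries of the series, 2 from each group, chosen by their titles, and it is described across the 8567 genes tested of 9110 in the count table. In both groups precultured mycelium had been moved into 5 mL of Vogel's salts in round-bottomed multi-well plates, with 2% of the named disaccharide and no other carbon source. Plate groups set beside them had no carbon (NoCarbon2), 2% of each disaccharide (G2X2), or 1% glucose with 1% xylose (GX), and flask groups of 100 mL had 2% xylan (Xylan) or 1% Avicel, a microcrystalline cellulose, with 1% xylan (XA). All 7 groups used the same strain and time and had 2 libraries each. Nothing in the labels says that the numbered replicates were grown separately. The p-values therefore reflect the variation among the sequenced libraries alone, and that variation may be technical.

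Cellobiose is a pair of glucose units released when fungal enzymes cut cellulose, and xylobiose is a pair of xylose units released from xylan, the main chain of many hemicelluloses. The fungal hyphae secrete cellulases and xylanases, take up the short sugars through membrane transporters, and split them further outside or inside the cell. In related fungi such as Neurospora and Trichoderma, short sugars of this kind act as signals, and zinc cluster transcription factors of the CLR and XYR/XLR types turn on the enzyme genes. The direct comparison asks how the response to one disaccharide differs from that to the other at the same mass concentration and time.

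The 4 libraries held between 17992946 and 21389403 counts assigned to genes. Levels are given as CPM (counts divided by library size, on the usual CPM scale) after scaling the libraries to each other by the trimmed mean of M values (TMM). Differences are log2 fold changes of X2 over G2 with their standard errors, and adjusted p is from edgeR's quasi-likelihood test over all genes tested. Across genes the X2 libraries correlated with each other at r = 0.969 and the G2 libraries at 0.990, against 0.889 to 0.928 between an X2 and a G2 library. Of genes with a mean of at least 20 CPM, 5.54% differed by more than 2-fold between the X2 libraries, and 0.491% between the G2 libraries.

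The disaccharides gave widely different transcript profiles. At an adjusted p under 0.05, 3213 genes were called, 37.5% of those tested, of which 1649 (19.2%) were higher and 1564 (18.3%) lower with xylobiose. Most called differences were under 4-fold. Of the called genes, 1036 higher and 776 lower reached 2-fold, and 312 and 197 reached 4-fold. At 8-fold or more there were 120 and 69, and at 64-fold or more 18 and 4. The median called rise was 1.18 and the median called fall -0.996 on the log2 scale. The split between directions depended on the scaling. With library totals in place of TMM, the median over all genes moved from 0.01 to -0.52, and 745 genes were higher and 3516 lower. Leaving out G2 replicate 1 left 2012 calls, leaving out G2 replicate 2 left 1543, and leaving out X2 replicate 2 left 1957.

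**Figure D1:**
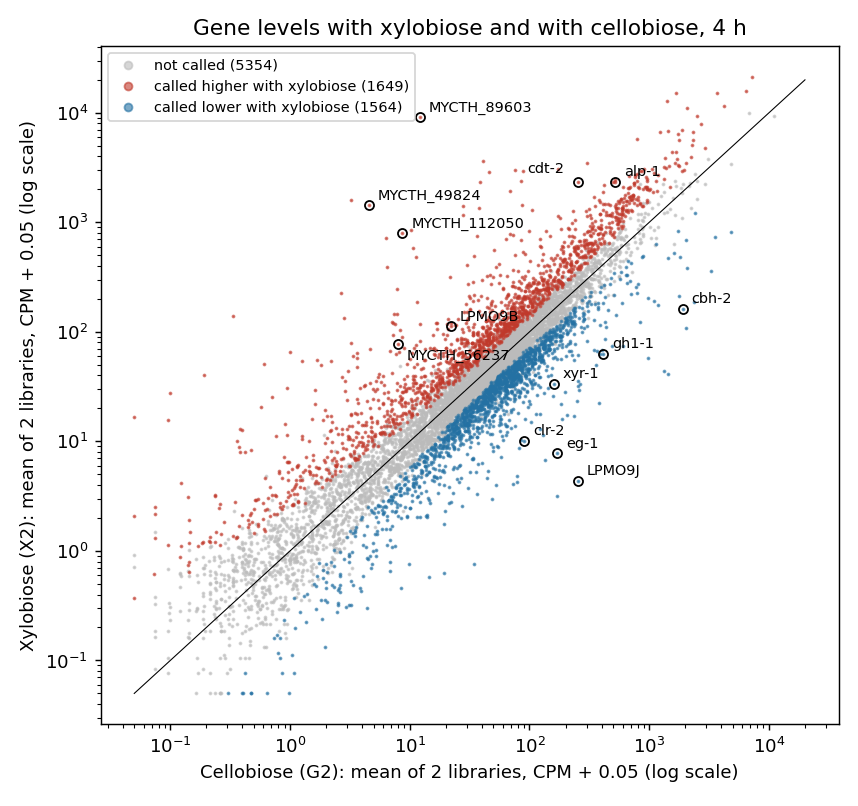
Mean level of each tested gene with cellobiose (x axis) and xylobiose (y axis), in CPM plus 0.05 on log scales, n = 2 libraries each; colours mark the 1649 genes called higher and the 1564 called lower with xylobiose, and circles mark named loci. Xylanase locus MYCTH_89603 lies farthest above the diagonal among the circled loci, at 12.03 against 9181 CPM.

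In the results that follow, 25 loci are grouped by role. Their trivial names (cbh-1, cdt-2 and so on) are published locus names as recalled, and the reference table used here gives only the locus tag for each, apart from cdh, which it calls cbdA. The list was not chosen blind to these data, so its counts describe the loci and support nothing further. Of the 25, 8 were called higher with xylobiose and 12 lower, and 5 were not called, where 19.2% of all genes tested were higher and 18.3% lower.

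Xylanases cut the xylan backbone. MYCTH_89603 stood at 5725 and 12640 CPM in the X2 libraries and at 11.3 and 12.8 CPM in the G2 libraries, a difference of 9.57 ± 0.60 (adjusted p = 1.48e-06). By raw count it ranked 15 and 8 among all genes in X2 replicates 1 and 2. MYCTH_49824 was at 704 and 2172 CPM with xylobiose against 4.85 and 4.15 with cellobiose (8.32 ± 0.62, adjusted p = 5.64e-06). MYCTH_112050 was at 410.0 and 1192 CPM against 10.7 and 6.50 (6.54 ± 0.49), and MYCTH_56237 at 49.8 and 106 CPM against 7.66 and 8.21 (3.29 ± 0.36). All 4 loci were called higher, against 19.2% of all genes tested. None of the 4 overlapped between the groups, where 34.9% of all genes tested had both X2 libraries above both G2 libraries. X2 replicate 2 stood above replicate 1 for each of the 4 loci. Together the 4 loci took 0.592% and 1.18% of all counts with xylobiose and 0.00395% and 0.00364% with cellobiose. With no carbon they took 0.00709% and 0.00668%, with the monosaccharides 0.00497% and 0.00391%, and in the mixture 0.137% and 0.182%. In the mixture MYCTH_89603 was at 456 and 637 CPM and MYCTH_49824 at 249 and 336, between their levels with each sugar alone. MYCTH_112050 was at 658 and 807.5 CPM there and MYCTH_56237 at 50.4 and 81.4, within the range of their X2 libraries. Without X2 replicate 2 the differences were 8.88, 7.27, 5.56 and 2.63, in the order given, and all were called.

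Transporters of the sugars differed in both directions. The gene cdt-2 (MYCTH_114107), which encodes a transporter of short sugar chains, was at 1467 and 3208 CPM with xylobiose and at 293 and 212 with cellobiose (3.21 ± 0.42, adjusted p = 0.000209), or 2.52 without X2 replicate 2. With no carbon it was at 127 and 78.7 CPM, with the monosaccharides at 37.1 and 37.6, and in the mixture at 1479 and 1443. Both single disaccharides therefore lay above no carbon, and the mixture stood near X2 replicate 1. The related cdt-1 (MYCTH_43941) stayed under 4 CPM in all 4 libraries and was not called (-1.22 ± 0.61, adjusted p = 0.133). It was called without X2 replicate 2 (-2.84, adjusted p = 0.0151) and with library totals (-1.79, 0.0233), and was -0.46 (0.5295) without X2 replicate 1. For glucose uptake, glt-1 (MYCTH_108924) was at 82.3 and 41.5 CPM with xylobiose and 184 and 326 with cellobiose (-2.04 ± 0.55, adjusted p = 0.0134). That call was lost without G2 replicate 2 (adjusted p = 0.100) or X2 replicate 2 (0.104), and the difference was -2.66 without X2 replicate 1. The arabinose transporter gene lat-1 (MYCTH_95427) was at 24.7 and 44.4 CPM against 13.1 in each G2 library (1.39 ± 0.40, adjusted p = 0.0171). Its difference was 0.89 without X2 replicate 2 (adjusted p = 0.166) and 0.84 with library totals (0.0824), and it was not called without either G2 library (0.0822 and 0.0903). In both polymer groups lat-1 was far higher, between 141 and 406 CPM.

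The intracellular beta-glucosidase gene gh1-1 (MYCTH_115968), whose product splits cellobiose into glucose, was lower with xylobiose. It was at 46.0 and 80.2 CPM in the X2 libraries and 479 and 347 in the G2 libraries (-2.71 ± 0.32, adjusted p = 9.16e-05). The no-carbon libraries were at 48.8 and 74.4 CPM and those with the monosaccharides at 62.4 and 66.9, between the X2 libraries. The mixture was at 411 and 425 CPM, within the range of the G2 libraries.

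Of the 3 regulator genes, 2 were called lower with xylobiose and 0 higher, against 18.3% and 19.2% of all genes tested. The cellulase regulator gene clr-2 (MYCTH_38704) was at 4.52 and 15.7 CPM with xylobiose and 100.2 and 80.4 with cellobiose (-3.17 ± 0.54, adjusted p = 0.00106), or -2.56 without X2 replicate 1 and -4.33 without X2 replicate 2. The gene xyr-1 (MYCTH_2310145), named for its role as a xylanase regulator, was at 34.0 and 33.0 CPM with xylobiose and 174 and 144 with cellobiose (-2.25 ± 0.29, adjusted p = 0.000187). Its transcript was therefore lower in the group whose xylanase transcripts were higher. With no carbon xyr-1 was at 57.9 and 40.4 CPM and in the mixture at 90.4 and 89.0, so the X2 libraries were the lowest of the plate groups apart from GX, at 28.7 and 31.2. The gene clr-1 (MYCTH_2298863) was not called, at 53.2 and 80.1 CPM against 69.1 and 78.2 (-0.15, 95% interval -0.75 to 0.46). With library totals clr-1 was at -0.70 and called (adjusted p = 0.0408), and without X2 replicate 1 it was at 0.081.

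Cellulases cut cellulose chains from the ends (cbh-1 and cbh-2) or within the chain (eg-1, eg-2 and eg-45). Of these 5 loci, 4 were called lower with xylobiose and 0 higher, against 18.3% and 19.2% of all genes tested. Their median was -2.75, against 0.01 over all genes tested. In all 5 both X2 libraries lay below both G2 libraries, as in 36.0% of all genes tested. The gene cbh-2 (MYCTH_66729) was at 88.2 and 238.5 CPM with xylobiose and 2336 and 1467 with cellobiose (-3.54 ± 0.49, adjusted p = 0.00029). The gene eg-1 (MYCTH_111372) was at 3.43 and 12.1 CPM against 235 and 106 (-4.47 ± 0.53), and eg-2 (MYCTH_86753) at 142 and 213 CPM against 1536 and 851 (-2.75 ± 0.33). The gene eg-45 (MYCTH_76901) fell by 2.54 ± 0.39. The exception was cbh-1 (MYCTH_109566), at 361 and 917 CPM with xylobiose and 2199 and 1017 with cellobiose. Its X2 replicate 2 came close to G2 replicate 2, and its difference was not called (-1.33 ± 0.57, adjusted p = 0.0831). Without X2 replicate 2 it was -2.17 (adjusted p = 0.0453) and with library totals -1.91 (0.0117), but it was -0.67 (0.469) without G2 replicate 1 and -0.85 (0.329) without X2 replicate 1. The call for cbh-1 thus depended on single libraries. Over the libraries left out in turn, eg-1 ranged from -5.65 (X2 replicate 2) to -3.79 (G2 replicate 1) and was -3.85 without X2 replicate 1. Without X2 replicate 2, cbh-2 was at -4.45 and eg-45 at -3.34. For eg-2 the monosaccharide libraries, at 191 and 148 CPM, lay near the X2 libraries, and those without carbon were at 64.6 and 40.0.

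Lytic polysaccharide monooxygenases (LPMOs) are copper enzymes that cut polysaccharides by oxidation, and cellobiose dehydrogenase can pass electrons to them. Among the 6 LPMO loci, 1 was higher and 3 were lower, against 19.2% and 18.3% of all genes tested, and without G2 replicate 1 only 1 was lower. LPMO9J (MYCTH_112089) was at 1.85 and 6.82 CPM with xylobiose and 369 and 139 with cellobiose (-5.90 ± 0.69, adjusted p = 0.000112), and cdh (MYCTH_111388) at 13.0 and 50.7 CPM against 358 and 155 (-3.01 ± 0.55, adjusted p = 0.00158). Over the libraries left out in turn, LPMO9J ranged from -7.11 (X2 replicate 2) to -5.03 (G2 replicate 1) and cdh from -4.32 (X2 replicate 2) to -2.29 (G2 replicate 1). Without X2 replicate 1 they were at -5.25 and -2.37. LPMO9B (MYCTH_80312) went the other way, at 52.0 and 174.5 CPM with xylobiose and 29.9 and 13.99 with cellobiose (2.37 ± 0.49, adjusted p = 0.0031). It was 1.23 without X2 replicate 2 (adjusted p = 0.0368), 2.96 without X2 replicate 1 and 3.02 without G2 replicate 1, called in each case. LPMO9E (MYCTH_79765) and LPMO9A (MYCTH_85556) were lower by 1.87 and 1.52 on the log2 scale. The call for LPMO9E was lost without G2 replicate 1 (-1.23, adjusted p = 0.117) or X2 replicate 2 (-1.74, 0.0775), and that for LPMO9A without either G2 library or X2 replicate 1 (adjusted p 0.0544 to 0.135). LPMO9H (MYCTH_46583) was at 58.6 CPM in X2 replicate 1 and 288 in replicate 2, below and above the G2 libraries at 146.5 and 126. It was not called (0.35, 95% interval -0.93 to 1.62), and the sign turned without X2 replicate 2 (-1.23) and with library totals (-0.26). LPMO9D (MYCTH_92668) was under 3 CPM in all 4 libraries.

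The extracellular alkaline protease gene alp-1 (MYCTH_2303011) was higher with xylobiose, at 1983 and 2710 CPM against 560.5 and 484 (2.17 ± 0.33, adjusted p = 0.000463). The monosaccharide libraries were at 1975 and 2168 CPM, also above both G2 libraries, and the mixture was at 459 and 295, below them. The reference table names 6 genes, of which cbdA is the cdh locus above. The phytase gene phy1 (MYCTH_104551) was lower with xylobiose, at 28.1 and 24.8 CPM against 54.2 and 57.1 (-1.07 ± 0.25, adjusted p = 0.00557). The glucoamylase gene gla1 (MYCTH_72393, -0.36), the galactanase gene ganA (MYCTH_43163, -0.15) and the gene cat1 (MYCTH_80916, -0.60) were not called, and lcc1 was removed by the filter on low counts. The gene cat1 was called without X2 replicate 2 (-0.997, adjusted p = 0.0453) and with library totals (-1.15, 0.00364).

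**Figure D2:**
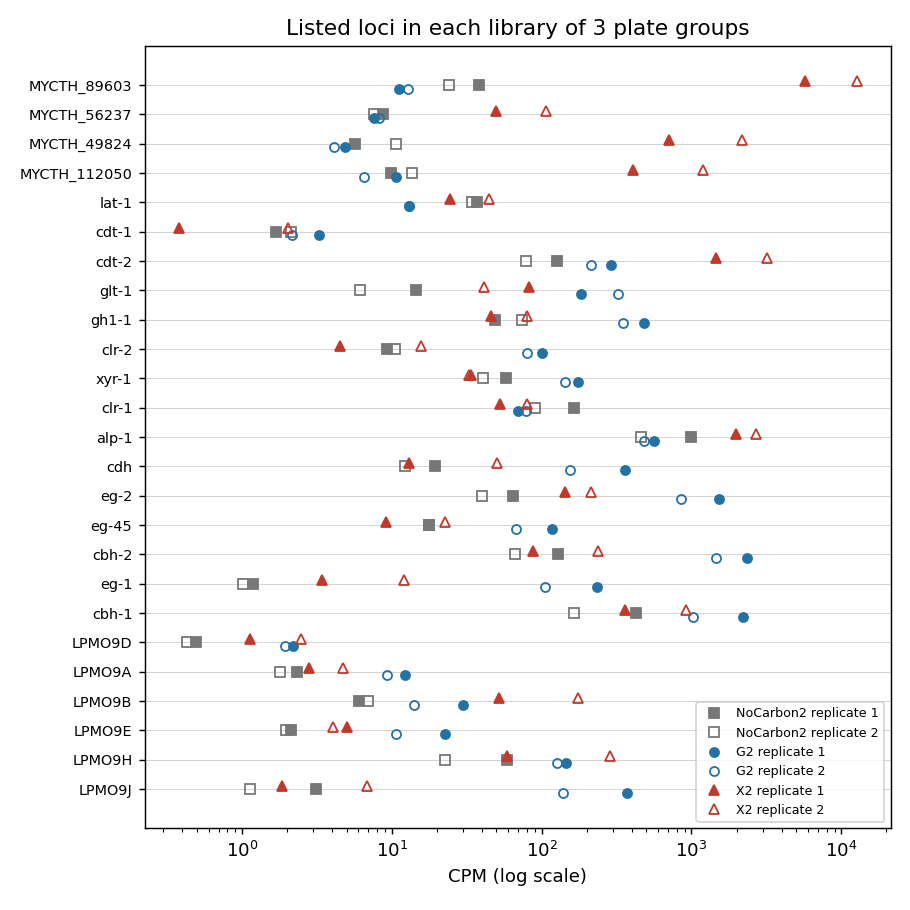
CPM of the 25 listed loci (log x axis) in each library without carbon (squares), with cellobiose (circles) and with xylobiose (triangles); filled symbols are replicate 1 and open symbols replicate 2. The xylanase loci and cdt-2 lie to the right with xylobiose, and for gh1-1, clr-2 and xyr-1 the cellobiose libraries lie to the right of the other plate groups shown.

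Among genes with neither a recalled name nor a reference symbol, the naming rule picks the largest changes. MYCTH_2066457 was at 876 and 2355 CPM with xylobiose and at 3.10 and 3.25 with cellobiose (8.99 ± 0.61, adjusted p = 2.25e-06). It was at 454 and 662 CPM in the mixture and 0.369 and 0.623 without carbon, so both plate groups that held xylobiose were high. Without X2 replicate 2 its difference was 8.09. MYCTH_81364 stood at 5.29 and 2.805 CPM without carbon and at 1.09 and 0.644 in the mixture, so the mixture was below no carbon. In the flasks it was at 79.0 and 47.5 CPM with xylan alone and 19.5 and 34.6 with Avicel plus xylan. It was at 16.1 and 39.5 CPM with xylobiose, against 2 counts in G2 replicate 1 and 0 in replicate 2. Its pooled level was 567 times higher, with a 95% interval of 156 to 4687 for counting error alone, and the fitted difference of 9.04 ± 1.04 moved to 12.2 when G2 replicate 1 was left out, 8.07 when G2 replicate 2 was and 8.24 when X2 replicate 2 was. MYCTH_62925 was at 1.85 and 4.39 CPM with xylobiose and 215 and 125 with cellobiose (-5.79 ± 0.40, or -6.53 without X2 replicate 2), with the mixture at 141 and 190. MYCTH_2070001 was at 1.36 and 0.0676 CPM against 30.2 and 38.8 (-5.50 ± 0.87, or -8.92 without X2 replicate 1 and -4.67 without X2 replicate 2). Its mixture libraries, at 0.497 and 1.44 CPM, resembled those with xylobiose. Complete silence was rare at appreciable levels. Of 267 genes with no count in either G2 library, 2 reached a mean of 1 CPM with xylobiose, and of 317 with no count in either X2 library, 0 reached it with cellobiose. The higher of the pair, MYCTH_115957 (named after its values were seen), was at 7.24 and 26.3 CPM with xylobiose. Its X2 mean was 239 times a floor of 3 counts over the G2 group, a ratio that leaves out the spread between the X2 libraries.

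The shares called in each direction differed by abundance. Genes were sorted by their mean CPM over the 4 libraries, which includes the values compared, so these shares are a description. Of the 169 genes over 1000 CPM, 120 (71.0%) were called higher with xylobiose and 12 (7.10%) lower. Of the 4585 genes between 10 and 100 CPM, 15.0% were higher and 23.2% lower. The median difference of the 169 most abundant genes was 1.18 on the log2 scale, and it was 0.63 with library totals, where 88 were higher and 26 lower and the median of all genes was -0.52. These 169 genes took 37.1% and 42.8% of the counts in the X2 libraries and 28.1% and 27.6% in the G2 libraries. The 100 most abundant genes of each group shared 57, of which 43 were called higher with xylobiose, 0 lower and 14 not called. Over all genes tested 19.2% were higher and 18.3% lower. Of the 43 genes only in the X2 list 42 were called higher, and of the 43 only in the G2 list 21 were called lower. These lists were counted with TMM scaling only and were chosen by the values compared.

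**Figure D3:**
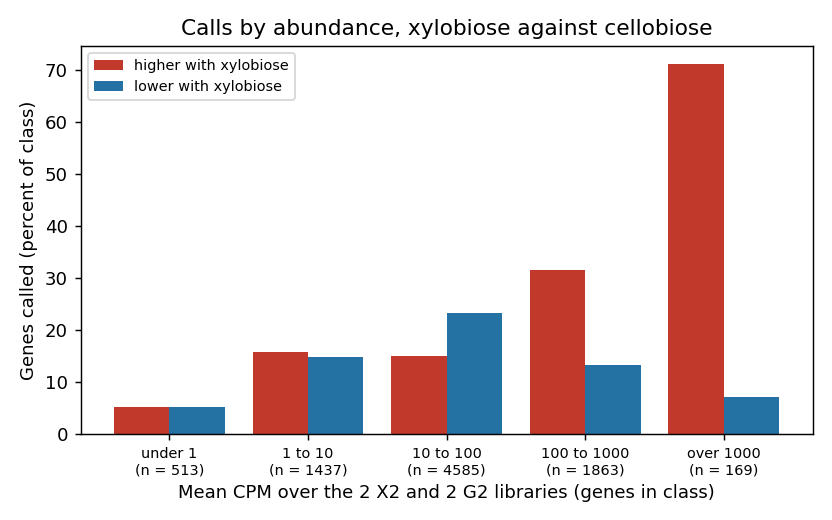
Percent of tested genes called higher or lower with xylobiose than with cellobiose, in 5 classes of mean CPM over the 4 libraries, with the number of genes in each class. In the class over 1000 CPM 71.0% were higher and 7.10% lower.

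The called sets were then followed in the other 10 libraries, which were not part of the contrast but shared its filter, scaling and estimate of spread (2222 genes were called from the 4 libraries alone). The 1649 genes called higher with xylobiose took 55.9% and 62.0% of counts in the X2 libraries and 32.4% and 30.3% in the G2 libraries. Elsewhere their share was 51.4% and 51.9% with xylan, 44.9% and 45.4% with Avicel plus xylan, and 43.6% and 43.5% in the disaccharide mixture. It was 39.0% and 35.6% without carbon and 35.8% and 36.1% with the monosaccharides. The set was chosen for being higher in X2 than in G2, so the order of those groups was fixed by the choice. Among the other groups, the flask groups Xylan and XA and the mixture were above no carbon and the monosaccharides. That order is by share of counts, which abundant genes dominate. By the median level of the set the order differed: it was 73.0 and 63.4 CPM without carbon, 62.1 and 61.0 in the mixture, and 68.2 and 67.8 in XA. The 1564 genes called lower took 18.3% and 19.5% with cellobiose, 6.26% and 4.60% with xylobiose, and between 7.70% (Xylan replicate 2) and 14.5% (GX replicate 2) elsewhere.

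**Figure D4:**
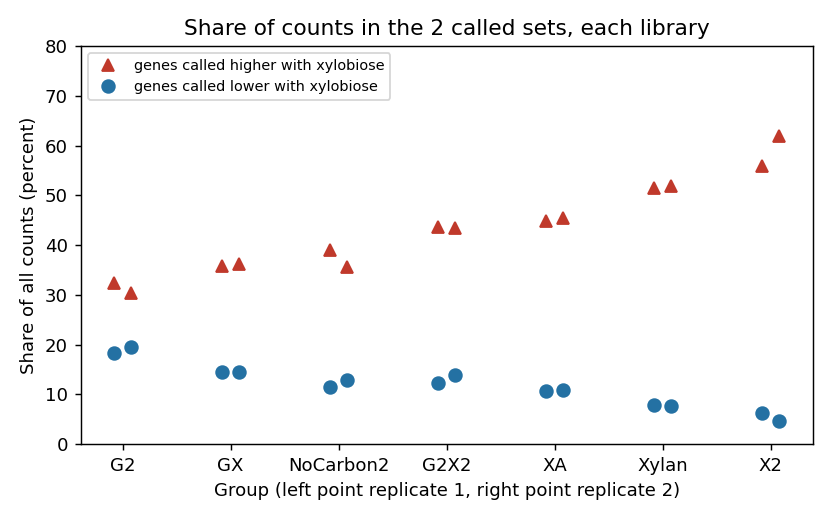
Percent of all counts in each library (y axis) taken by the genes called higher (triangles) and lower (circles) with xylobiose, by group; the left and right points are replicates 1 and 2. For the higher set the Xylan libraries, at 51.4% and 51.9%, come nearest to the X2 libraries.

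The flask groups share no library with the plate groups, so xylan against Avicel plus xylan (Xylan minus XA) offers a separate contrast between xylan alone and xylan with cellulose. In it 2731 genes were called (31.9%), 1461 (17.1%) higher and 1270 (14.8%) lower with xylan alone, or 902 and 2244 with library totals. The count fell to 1279 without XA replicate 1, 1218 without XA replicate 2 and 1343 without Xylan replicate 2. Across the 8567 genes the log2 changes of both contrasts correlated weakly, at r = 0.185 (Spearman's rho 0.188), given as a description since genes are not independent replicates. Of the genes higher with xylobiose than with cellobiose, 31.2% were called higher with xylan alone and 10.5% lower. Of those lower with xylobiose, 7.42% were higher and 20.4% lower. In all 1122 genes were called in both contrasts, 34.9% of the plate calls and 41.1% of the flask calls. These shares were little above those over all genes tested, 31.9% for the flask contrast and 37.5% for the plate contrast. Of the 1122 genes, 74.2% had the same direction.

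In the flasks 17 of the 25 listed loci were lower with xylan alone and 1 was higher, against 14.8% and 17.1% of all genes tested. All 5 cellulases and cdh were lower with xylan alone, from -1.56 for eg-2 to -4.66 for eg-1, and gh1-1 (-2.28), clr-2 (-3.63), xyr-1 (-1.99), clr-1 (-1.09) and cdt-1 (-2.04) were lower as well. The locus called higher was the protease gene alp-1 (1.70, adjusted p = 0.00216). Both flask groups held xylan, at different doses, and 0 of the 4 xylanase loci were higher with xylan alone: MYCTH_49824 and MYCTH_112050 were lower (-1.504 and -1.40), and MYCTH_89603 (0.67, adjusted p = 0.235) and MYCTH_56237 (-0.04) were not called. The transporter gene cdt-2, higher with xylobiose in the plates, was lower with xylan alone (-2.79, adjusted p = 0.000481), and so was LPMO9B (MYCTH_80312, -3.001, adjusted p = 0.00111).

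Glucose plus xylose against no carbon (GX minus NoCarbon2) is another contrast that shares no library with X2 minus G2. In it 2060 genes were called (24.0%), 938 (10.9%) higher and 1122 (13.1%) lower with the monosaccharides, or 999 in all without GX replicate 1 and 1060 without GX replicate 2. Its log2 changes correlated negatively with those of xylobiose against cellobiose, at r = -0.333 (Spearman's rho -0.215) over 8567 genes. Large changes were opposed in many genes. Of the 120 genes at least 8-fold higher with xylobiose, 63 (52.5%) were lower with the monosaccharides than without carbon and 6 (5.00%) higher. Of the 69 genes at least 8-fold lower with xylobiose, 23 (33.3%) were higher with the monosaccharides and 1 (1.45%) lower.

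The levels of these 2 sets show which groups stood together. The 120 genes had a median of 32.6 and 80.4 CPM in the X2 libraries, 33.9 and 22.2 without carbon, and 3.01 and 3.05 with cellobiose. The mixture, at 6.24 and 4.98 CPM, and the monosaccharides, at 7.10 and 7.95, were also low. The flasks were at 33.9 and 34.8 CPM with xylan alone and at 20.2 and 20.6 with Avicel plus xylan. The 69 genes had a median of 29.1 and 36.2 CPM with cellobiose and 2.12 and 2.09 with xylobiose. Without carbon they were at 3.03 and 2.73 CPM, in the mixture at 4.42 and 4.16, and with the monosaccharides at 7.53 and 7.97. In the flasks they were at 4.02 and 2.90 CPM with xylan alone and at 6.77 and 6.19 with Avicel plus xylan. Comparisons of X2 and G2 with no carbon share libraries with the contrast that chose the sets, so their values are given side by side only. In those comparisons 3308 genes were called for X2 (38.6%, with 19.1% higher and 19.5% lower) and 2274 for G2 (26.5%, with 12.3% higher and 14.2% lower). For the 120 genes the median was 1.51 for X2 and -3.13 for G2 against no carbon, and for the 69 genes -0.39 and 3.19.

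**Figure D5:**
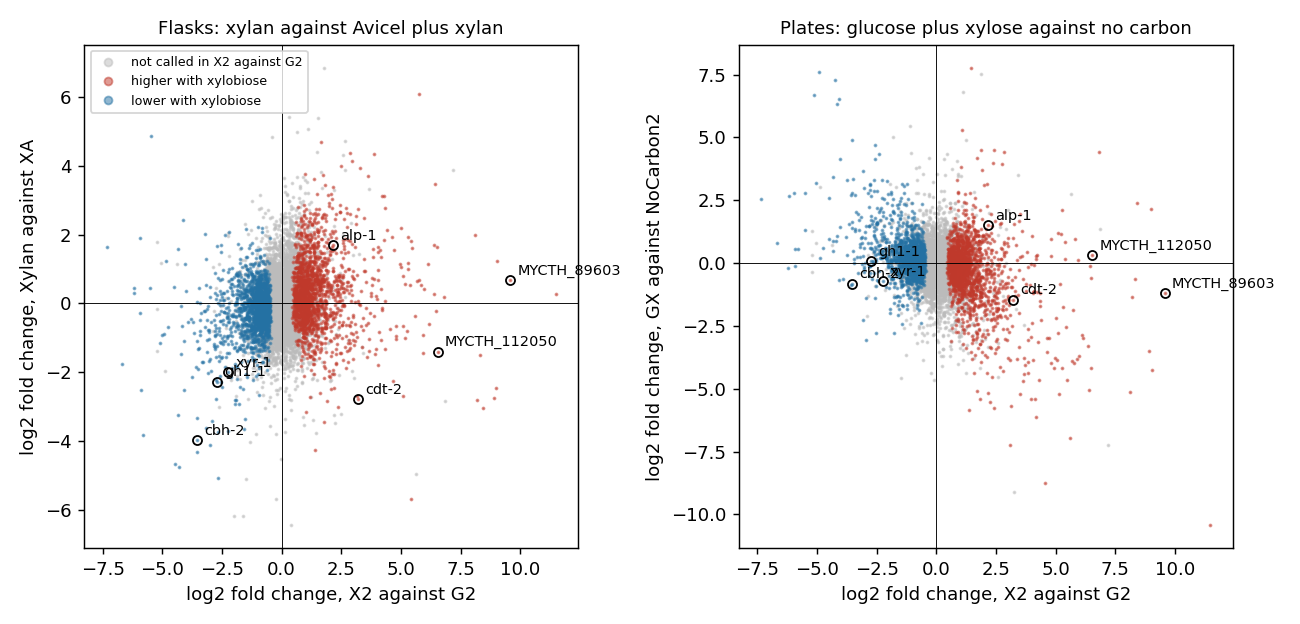
Each tested gene's log2 fold change of X2 over G2 (x axes) against that of Xylan over XA in flasks (left, r = 0.185) and of GX over NoCarbon2 in plates (right, r = -0.333), contrasts that share no library with X2 over G2. In the right plot 63 of the 120 genes at least 8-fold higher with xylobiose were called lower with GX, and in the left plot cbh-2, gh1-1 and xyr-1 lie low on both axes while cdt-2 does not.

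Genes called in the same direction lay side by side more often than the shares over all genes. Gene order was taken from the reference annotation, which gave 8133 pairs of neighbouring protein-coding genes with both members tested. In 406 pairs both were higher with xylobiose, in 332 both were lower and in 452 they were opposite. A gene next to one called higher was itself called higher in 26.2% of cases, next to a gene not called in 18.1%, and next to one called lower in 15.0%. A gene next to one called lower was called lower in 22.0%, against 18.7% next to a gene not called and 14.6% next to one called higher. The contrast was sharper for changes of at least 2-fold, where 20.7% of genes next to a higher gene were higher, against 11.9% over all. The 738 pairs called the same way fell to 341 when G2 replicate 1 was left out, to 223 when G2 replicate 2 was, and to 331 when X2 replicate 2 was. Runs of 3 or more numbered 77 for higher and 57 for lower genes, and the longest held 7 genes. The order of genes was not used by the test, but the counting is not stated to separate strands, so reads of overlapping neighbours cannot be told apart.

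There were 3 runs of 7 genes, picked out after their values were seen. The run from MYCTH_61442 to MYCTH_2311121 was higher with xylobiose, by 3.01 to 6.47 on the log2 scale, and its summed level was 17140 and 12010 CPM against 477 and 249 with cellobiose. Without carbon the sum was 15100 and 4386 CPM, and with the monosaccharides 710 and 823. All 7 genes were called lower with the monosaccharides than without carbon, against 13.1% of all genes tested. The run from MYCTH_2064854 to MYCTH_108314 was lower with xylobiose, with log2 changes from -5.10 to -1.68 and sums of 1083 and 1128 CPM against 11670 and 9807. It was at 311 and 147 CPM without carbon, 14910 and 22030 in the mixture and 8035 and 8662 with the monosaccharides. With the monosaccharides 6 of its 7 genes were called higher than without carbon, against 10.9% of all genes tested. Among the plate groups, the first run was high in the groups given no glucose or cellobiose, and the second in those given either. The run from MYCTH_2295409 to MYCTH_76393 was higher by 1.06 to 3.01, at sums of 705 and 714 CPM against 200 and 235. Of the xylanase loci, 2 had a neighbour also called higher with xylobiose than with cellobiose, picked out after the values were seen. Over all pairs, 26.2% of genes next to one called higher were called higher, a share per neighbour and not per locus. The other neighbours of these loci, MYCTH_2305522 (-0.12) and MYCTH_2309668 (-0.33), were not called. Neither neighbour of MYCTH_89603 or of MYCTH_56237 was called. Counted by neighbour, the xylanase loci therefore did not exceed the share over all pairs. MYCTH_49210, next to MYCTH_49824, was at 43.7 and 96.5 CPM against 3.98 and 5.23 (3.92 ± 0.38). MYCTH_54466, next to MYCTH_112050, was at 10.1 and 15.9 CPM against 0.437 and 0.226 (5.28 ± 0.44). Without carbon MYCTH_49210 was at 14.55 and 20.1 CPM and MYCTH_54466 at 4.18 and 2.53, between the X2 and G2 libraries of each. With the monosaccharides MYCTH_49210 was at 11.4 and 7.44 CPM. MYCTH_54466 was at 14.85 and 13.97 there, within the range of its X2 libraries.

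The X2 replicates differed in their distance from cellobiose. Of the 1649 genes called higher, 68.8% had a higher level in X2 replicate 2 than in replicate 1, against 48.3% of all genes tested. Of the 1564 called lower, 25.1% did. Both sets were chosen by these same values, so the shares are a description. The G2 replicates differed too: replicate 1 was above replicate 2 in 64.8% of the higher set and 40.7% of the lower set. Over all genes tested that share was 51.6%. Of the 25 listed loci, 22 stood higher in X2 replicate 2, among them both the xylanases and cdt-2, called higher with xylobiose, and the cellulases, cdh and clr-2, which were higher with cellobiose. For the cellulases, cdh and clr-2, replicate 2 was therefore the nearer of the X2 libraries to cellobiose. The LPMO loci did not all follow, as replicate 2 was the farther for LPMO9B and LPMO9E. Leaving replicate 2 out kept all 4 xylanase loci, cdt-2, gh1-1, clr-2, xyr-1 and alp-1 called in the same direction.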

How the data were processed

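Total RNA of 14 libraries was sequenced. The authors deposited whole-number counts of reads per gene, not normalized. Per the submitters' processing notes, the tools included TopHat2 2.0.8b and HTSeq 0.13.5. The genome build, gene models and handling of strand were not given in the sources used here, so near-identical gene copies may share reads. Groups came from titles (the AX columns were taken as the XA titles). Of 9110 identifiers, 9087 matched locus tags of the RefSeq table for ASM22609v1, which was used for 6 symbols and gene order.

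R 4.3.3 and edgeR 4.0.16 were used. Low genes were removed by filterByExpr at a minimum count of 10, which took out 543, and the libraries were scaled by TMM and fitted in a single robust quasi-likelihood model with 7 group means on 14 libraries (7 residual degrees of freedom). Adjusted p is Benjamini-Hochberg, and the threshold was 0.05. Standard errors came from the fold change and its F statistic. Summed counts of 17992946 to 25254924 per library limit precision for genes of a few CPM. DESeq2 1.42.0 was an alternative. The model was also run on simulated data drawn with the same spread in X2 and G2. The real X2 libraries differed more from each other than the G2 libraries did (5.54% against 0.491% of genes over 2-fold). The simulation therefore cannot show how the model behaves for these 4 libraries, and nothing is drawn from it.

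The comparison, the loci and the lists were chosen with earlier results of these data known. The naming rule took the 25 loci, the reference symbols, and of other called genes the 2 largest rises and 2 largest falls with at least 20 CPM in the higher group and no overlap between groups. Lists by protein signature and promoter motifs were planned but not run, as no protein or promoter sequence was used here. GX against NoCarbon2, scaling by library totals and the test against a 2-fold change were added after the data were seen.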

Additional observations from a re-analysis of the deposited data

How the results depend on the processing

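For X2 against G2, the count of genes called stayed within 1.5 times the reported 3213 with DESeq2-style size factors, upper-quartile scaling, no count filter, a minimum count of 50, plate libraries only, contrasted groups only (1011 lower and 401 neighbouring pairs called the same way, against 1564 and 738), DESeq2 and the replicate block. With library totals 745 genes were higher and 3516 lower, with 1727 such pairs, and for Xylan against XA 902 and 2244. Tested against a 2-fold change, 495 genes were called, 317 higher and 178 lower. Requiring 2-fold left 305 pairs. Leaving out each library gave 1543 to 3305 called, 789 to 1568 higher, 754 to 1737 lower and 223 to 741 pairs; for Xylan against XA 1218 to 2203, 674 to 1207 and 497 to 996; and for GX against NoCarbon2 999 to 1972, 490 to 880 and 509 to 1092. The last comparison had 1055 calls (503 higher, 552 lower) with contrasted groups only. Where an arm had 1 library, it was assumed to vary like the other groups. Of 429 values for 33 named genes, 405 kept their direction and side of the threshold, 11 lost the call, 7 gained one and 6 turned sign, none of these called: ganA without G2 replicate 1 (0.36) or X2 replicate 1 (0.28), LPMO9D (0.24) and clr-1 (0.081) without X2 replicate 1, and LPMO9H without X2 replicate 2 (-1.23) or with library totals (-0.26). Leaving out each library gave -0.82 to 0.36 for ganA, -0.86 to 0.24 for LPMO9D, -0.49 to 0.081 for clr-1 and -1.23 to 1.04 for LPMO9H. The causes were not tested. The labels do not say that replicate numbers mark a batch, and deviations of same-numbered X2 and G2 libraries correlated at r = -0.0047; with the replicate block 3033 genes were called. Depth limits genes of a few CPM. Single libraries also decided calls at higher levels, as for glt-1, lat-1 and cbh-1.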
